A study of Solanum virginianum with 36 samples.

Results

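The 150 gene IDs whose level differed most between replicate libraries of the same line and time are described here, out of 13850 IDs of moderate level and 85443 IDs in the deposited table. The RNA came from leaves of 1 eggplant line resistant to western flower thrips and 1 that is susceptible, taken after 0, 4, 8, 12, 24 and 48 h of feeding, with 3 libraries in each of the 12 groups of line and time. The labels call the libraries biological replicates and name neither the plants nor whether leaves were pooled, so p-values measure the spread between these libraries, which may be technical in part. Every group after 0 h was fed on, so feeding and the hour of sampling changed together. Eggplant is named in the series title, whereas the samples are labelled Solanum virginianum, another species of the genus. Each of the lines stands for its type alone, and their names and pedigrees are not in the labels.

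The members were chosen by their spread. Levels are CPM, the deposited estimated counts scaled to the normalized library total in the usual way, and they are not per length. IDs with a mean of 5 to 500 CPM over the 36 libraries entered the pool. For each, the SD of log2(CPM + 1) over 3 replicates was taken in each group, and the score was the median of the 12 SDs. The 150 highest scores made the list, so the size of the spread is a property of the choice and is given without a test.

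As background, transcript levels differ among plants of a line grown alike. Some plant genes are present, or expressed, in some individuals of a species and not in others. Others respond within a short time to light, wounding, temperature or pathogens. Thrips feed by piercing and emptying single epidermal and mesophyll cells, which leaves patches of damaged and intact tissue on 1 leaf. Neither table gives a name, function or sequence for an ID. No role is therefore given to any ID, and leaf marker genes could not be looked up.

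Scores of the members ran from 0.99 to 3.75 on the log2 scale, with a median of 1.38, and 35 members had a score of at least 2. In the whole pool the median score was 0.198 and the 95th percentile 0.551. The 150th ID, Sme2.5_01795.1_g00007, had a score of 0.9924. The next ID outside the list, Sme2.5_09658.1_g00004, had 0.9915, so the list ends within a continuous range of scores. The median SD of the members lay between 1.19 (resistant, 8 h) and 1.51 (susceptible, 8 h) over the 12 groups, against 0.158 to 0.251 for the pool. The score is built from these same SDs, so they are a description of the choice. Members had a median level of 16.8 CPM and pool IDs one of 27.7 CPM.

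**Figure D1:**
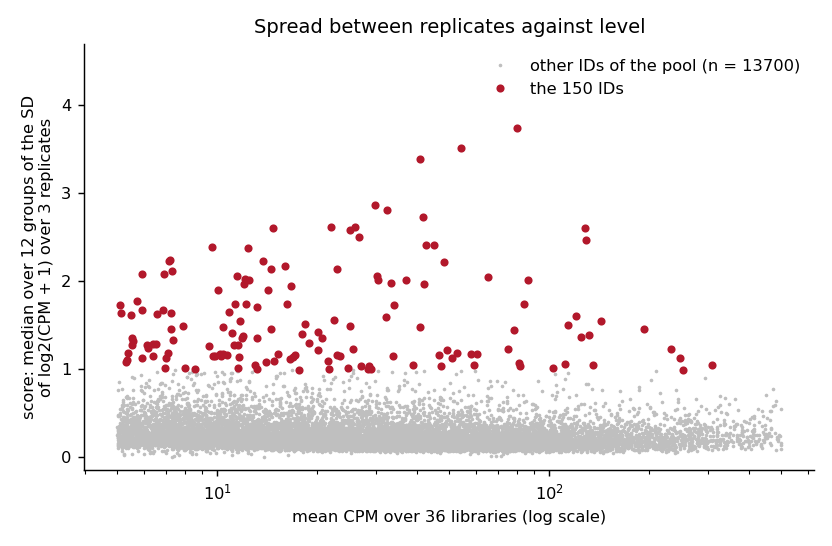
Score of each ID (median over 12 groups of the SD of log2(CPM + 1) over 3 replicates) against its mean CPM over 36 libraries on a log axis, with the 150 members in red and the other pool IDs in grey. Members occur from 5.09 to 309 CPM and are not limited to low levels, although their median level (16.8 CPM) is under that of the pool (27.7 CPM).

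Depth was alike, with 30629392 to 42391553 estimated counts with an ID per library. Replicate 3 of the resistant line at 48 h stood apart: it alone among the resistant libraries held a count for 181 IDs that averaged at least 1 CPM over the susceptible ones, against 1 to 7 in any other resistant library. Without it, 137 of the 150 members stayed on the list. The counts of members given below were then 47 for the lines on average, 14 for the lines at 0 h, 20 and 12 for the resistant and susceptible time courses and 3 for their difference.

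The spread was next described in the line whose SDs did not enter the ranking. The limits on the mean level and the normalization still used all 36 libraries. The score was recomputed from the 6 groups of each line alone. The 150 IDs with the highest score in the resistant line had a median score of 0.714 in the susceptible line, where the pool had 0.184. The 150 chosen in the susceptible line had a median of 0.664 in the resistant line, where the pool had 0.217. Of these lists, 56.7% and 51.3% lay above the pool's 95th percentile in the other line. They shared 45 IDs, which is 30% of each. Of the 150 members, 86 were in the resistant list, 86 in the susceptible list and 23 in neither.

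Of the 4 IDs with the highest scores, Sme2.5_00940.1_g00015 and Sme2.5_00269.1_g00002 were switched between a level near 0 and a steady high level. Sme2.5_00940.1_g00015, with the highest score of 3.75, had 144, 0.0728 and 105 CPM in the resistant libraries at 0 h. In the susceptible libraries at 0 h it had 0.185, 0.0826 and 163 CPM. At 48 h it had 83.2, 74.5 and 71.8 CPM in the resistant line. At 0 h each line thus held a library with almost none of the transcript beside one with over 100 CPM, and the groups overlapped. Over all libraries, 14 of 18 resistant ones were high, at 92.4 ± 21.7 CPM (SD, n = 14), and the other 4 had at most 0.0949 CPM. Of the susceptible libraries 13 of 18 were high, at 122 ± 25 CPM (SD, n = 13), and the rest had at most 0.434 CPM. No library of either line lay between the levels.

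Sme2.5_00269.1_g00002 had the same shape with a high level that differed between lines. It was at 0 in 8 of 18 resistant and 9 of 18 susceptible libraries. Where present, it had 103 ± 26.4 CPM (SD, n = 10) in resistant libraries and 49.1 ± 7.86 CPM (SD, n = 9) in susceptible ones. At 12 h all 3 resistant libraries held it, with 88.4, 120 and 91.2 CPM, while the susceptible ones had 45.1, 0 and 0 CPM. The highest susceptible library, at 69.0 CPM, was below the lowest resistant library that held the transcript, at 75.2 CPM. These are levels of libraries sorted by the level itself, so no test was made.

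Sme2.5_00072.1_g00017 was less clear-cut. Its resistant libraries had a lowest value of 0, a median of 8.81 and a highest of 169 CPM. The susceptible ones had 0, 21.6 and 170 CPM. At 48 h the resistant libraries had 0 CPM in all 3, and the susceptible ones 0, 0.031 and 76.0 CPM. Intermediate values such as 13.2, 22.1 and 23.2 CPM occurred in the susceptible line. For Sme2.5_04657.1_g00003 no resistant library was at 0, with a lowest value of 1.58 and a median of 4.37 CPM. Its high susceptible libraries had 86.4 ± 39.9 CPM (SD, n = 8).

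**Figure D2:**
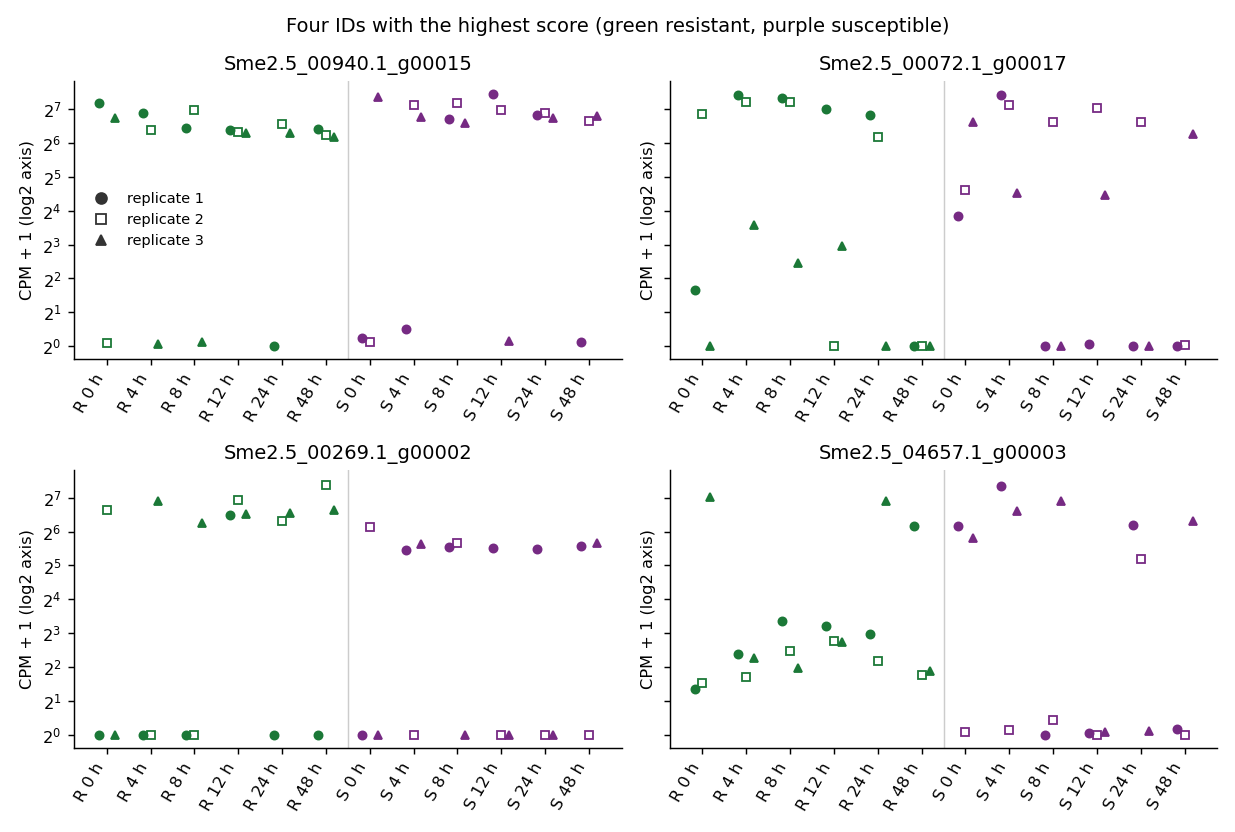
CPM + 1 on a log2 axis in all 36 libraries for the 4 IDs with the highest scores, by line (green resistant, purple susceptible) and time, with 1 symbol shape per replicate number. Most points lie near 1 (no transcript) or near a high level, and both kinds occur within the same group of 3.

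Switching of this kind was common among the members. An ID was taken as on and off in a group when 1 library had at most 3 estimated counts and another at least 5 CPM. This was so in at least 1 group for 83 members (55.3%), in at least 6 groups for 37, and in up to 11 groups. In the pool it was so for 260 IDs (1.88%). Between 23 (resistant, 48 h) and 39 (susceptible, 8 and 12 h) members were on and off in a single group. A high score favours IDs of this kind, so the contrast with the pool describes what the rule picked.

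A second description asked whether the values of a line split into separate levels. An ID was called 2-level in a line when the widest gap between its 18 ordered values of log2(CPM + 1) was at least 2, with at least 3 libraries on each side. The definition was chosen after the values were seen. Under it, 72 members (48%) were 2-level in a line, against 198 pool IDs (1.43%). Both lines split for 24 members, only the resistant line for 17, only the susceptible line for 31, and neither for 78. The widths asked of the gap set this count, which was 93 with a gap of 1.5 and 41 with a gap of 3. It was 31 when 5 CPM in place of 1 was added before the logarithm.

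For the 24 members that split in both lines, the high and low libraries were mixed within groups. Of the 288 combinations of member and group, 189 (65.6%) held both high and low libraries, and each member was mixed in 6 to 11 of the 12 groups. Since the members were chosen by their spread within groups, this mixing follows in part from the choice. Between 3 and 15 of the 18 libraries of a line were high, depending on the member, which are the limits that the definition sets. Each library was high for 9 to 18 of the 24 members, so no library was high or low throughout. The states of different members were nearly unrelated, with a median absolute r of 0.103 over the 36 libraries. The ratio of resistant to susceptible high means was 0.756 to 2.09, with a median of 1.30, and lay within 2-fold for 23 of 24 members. The coefficient of variation of the high level had a median of 0.308 and ran from 0.068 to 1.06.

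Some members were high in the libraries where a neighbouring ID was low. Sme2.5_00140.1_g00002 and the next ID on its scaffold, Sme2.5_00140.1_g00003, are the clearest case. In the susceptible libraries at 8 h the first had 26.6, 28.8 and 0 CPM and the second 0.412, 1.21 and 27.6 CPM. At 0 h the first had 26.0, 0 and 0.049 CPM and the second 0.949, 27.3 and 26.8 CPM. Whichever ID was low, the other was high. In the resistant line 1 library (0 h, replicate 1) had the first ID, at 22.7 CPM, with 2.92 CPM of the second, and the other 17 had none of it. The sum of the pair was 30.8 ± 4.42 CPM (SD, n = 36), with a range of 24.6 to 41.7 CPM. The scores were 1.32 and 0.92 for the IDs and 0.13 for their sum, and the r of their departures from group means was -0.99 over 36 libraries.

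**Figure D3:**
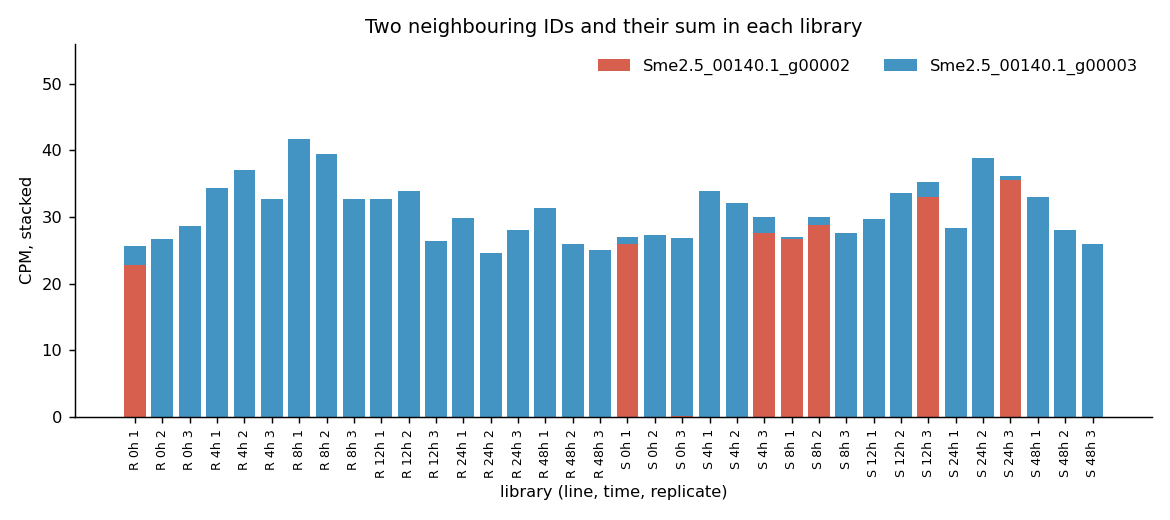
Stacked CPM of Sme2.5_00140.1_g00002 (red) and Sme2.5_00140.1_g00003 (blue) in each of the 36 libraries (R resistant, S susceptible). A bar is mostly red or mostly blue, and its full height, the sum, stays between 24.6 and 41.7 CPM.

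Sme2.5_04657.1_g00003 and Sme2.5_04657.1_g00004, both members with scores of 2.87 and 2.47, showed a like pattern that was incomplete in the susceptible line. In the susceptible libraries at 4 h the first had 163, 0.116 and 96.2 CPM, and the second 0, 257 and 51.6 CPM. The r was -0.83 and the score of the sum 0.37. In the resistant line the first ID was high in 3 libraries, with 130 CPM at 0 h, 118 CPM at 24 h and 71.0 CPM at 48 h. The second ID had no count in those same 3 libraries. In the susceptible line the first ID was high in 8 libraries, whereas the second was at 0 in 3. Other susceptible libraries held both, such as replicate 1 at 0 h, with 2657 and 1926 estimated counts.

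A partner was called reciprocal where r was at most -0.7 and the score of the sum at most 0.5 times either score. Such a partner on the same scaffold was found for 11 members (7.33%), against 36 pool IDs (0.26%), which include the 11. Both Sme2.5_04657.1_g00003 and Sme2.5_04657.1_g00004 are counted among the 11. An ID that is low in some libraries where its neighbour is high has a large spread, so this contrast follows in part from the choice. The score of the sum was 0.095 to 0.37 for the 11. With r of at most -0.8 the count was 7, and with a sum of at most 0.25 times either score it was 4. On any scaffold, 35 members (23.3%) had a reciprocal partner and 7292 pool IDs (52.6%) did, so a partner elsewhere is not more frequent among the members. The lowest r of a member with an ID of another scaffold was that of Sme2.5_13488.1_g00001 with Sme2.5_00515.1_g00011, at -0.95, with scores of 1.05 and 0.26 for the IDs and 0.12 for their sum. Sme2.5_00007.1_g00005 with Sme2.5_05013.1_g00002 had an r of -0.93 and scores of 1.08 and 0.43, and the score of their sum, 0.26, did not meet the limit for a reciprocal pair. Of the rows without an ID, a reciprocal one was found for 6 members. Whether reads of 1 transcript were assigned to either of 2 gene models was not tested, since no sequences of the IDs were used here.

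Beyond these pairs the members were scattered. They lay on 142 scaffolds, 8 of which held 2 members. Of 108 pairs of adjacent IDs that held a member, 25 (23.1%) had an absolute r of at least 0.5, and 13.0% of 5089 adjacent pairs in the pool did. The gene length implied by the ratio of counts to FPKM had a median of 1749 bases for the 111 members with FPKM, and of 2265 bases for 10191 pool IDs.

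The members did not vary together as 1 set. The r between departures from group means had a median of -0.0005 over all pairs of members. The first principal component of these departures held 11.3% of the members' variance and 18.8% of the pool's. Grouping by r (average linkage, cut at an r of 0.5) gave 1 cluster of at least 5 members, which held 16. A further 66 members fell into 31 clusters of 2 to 4, and 68 stood alone.

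None of the 16 IDs of the cluster was 2-level in a line. On and off in a group were 3 of them, Sme2.5_00323.1_g00013 in 4 groups, Sme2.5_11618.1_g00003 in 2 and Sme2.5_22488.1_g00001 in 1. The mean r between them was 0.774, and the lowest was 0.346. The most central IDs were Sme2.5_04615.1_g00006 and Sme2.5_00737.1_g00013. At 24 h in the resistant line the first had 8.40, 0.268 and 1.83 CPM and the second 42.4, 1.94 and 9.83 CPM. At 8 h in the susceptible line the first had 2.71, 16.0 and 1.52 CPM and the second 1.80, 29.1 and 5.46 CPM. The same library was the highest for both IDs in each of these groups.

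In 11 of the 12 groups 1 library was the highest for at least 10 of the 16 IDs, and in 2 groups for all 16. The cluster was formed from these same departures, so their r and a shared highest library follow in part from the grouping. The mean departure of the cluster from the group mean was largest in replicate 1 of the resistant line at 24 h (1.91 on the log2 scale), replicate 2 of the susceptible line at 8 h (1.78) and replicate 1 of the resistant line at 4 h (1.64). It was lowest in replicate 2 of the susceptible line at 48 h (-1.60) and replicate 2 of the resistant line at 24 h (-1.52). Replicate 1 was the one highest for most of the 16 IDs in 8 of the 12 groups, and replicates 2 and 3 in 2 each. The mean departure was above 0 in replicate 1 of 10 groups, in replicate 2 of 4 and in replicate 3 of 3. The labels do not say what a replicate number shares across groups. Totals of estimated counts were 33410100 to 41285899 in the 6 libraries where the cluster was highest and 30629392 to 37858357 in the 6 where it was lowest. The part of the totals and of the replicate number in the pattern was not tested. Outside the cluster, 196 pool IDs had an r of at least 0.8 with its mean and 63 an r of at most -0.8. The scores of the first component from the members and from the pool had an r of 0.918 over the 36 libraries, which share depth and members.

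**Figure D4:**
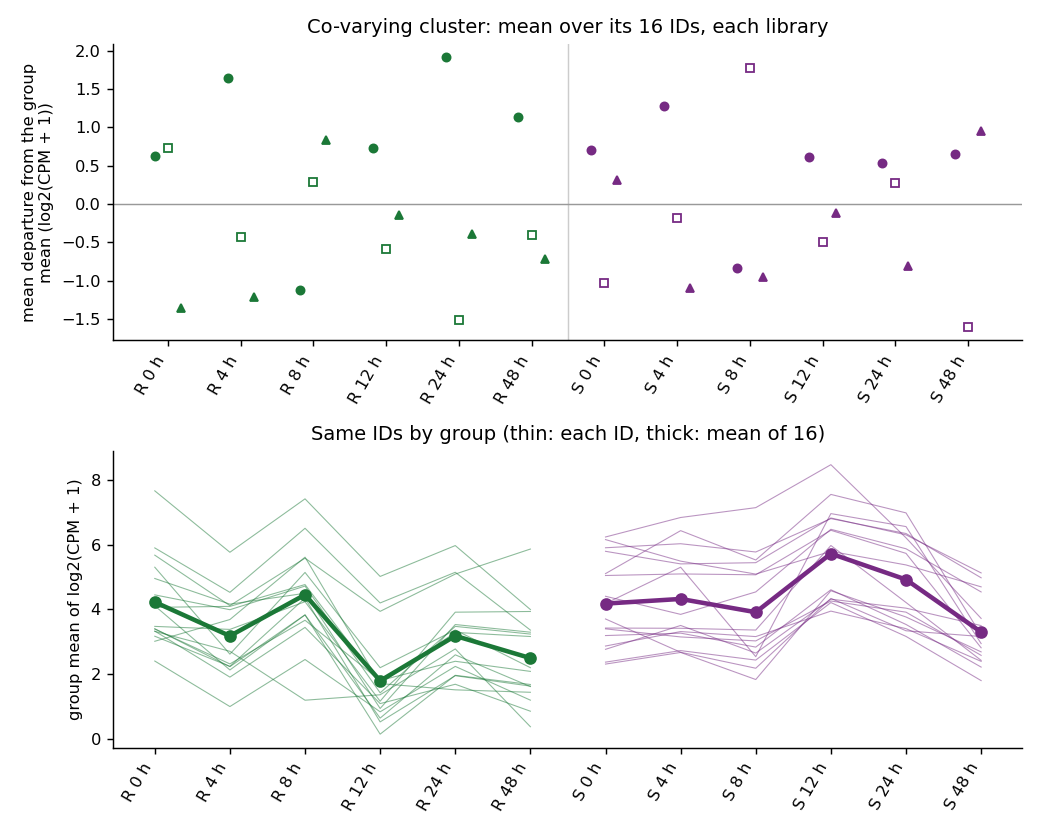
Upper panel: departure of each library from its group mean of log2(CPM + 1), averaged over the 16 IDs (circle, square and triangle for replicates 1, 2 and 3; green resistant, purple susceptible), and lower panel: group means of each ID (thin) and of all 16 (thick). Departures run from -1.60 to 1.91 within groups, and the mean at 12 h is 1.80 in the resistant and 5.72 in the susceptible line.

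The group means of the cluster are given as a description. The mean of log2(CPM + 1) over the 16 IDs was 4.23 at 0 h in the resistant line and 1.80 at 12 h, where 0 of 16 IDs were above their 0 h mean. For the susceptible line it was 4.18 at 0 h and 5.72 at 12 h, where 15 of 16 were above it. The lines were closer at 8 h, with 4.46 in the resistant and 3.92 in the susceptible line, where 10 and 6 of the 16 were above their 0 h means. At 48 h the means were 2.499 and 3.30. In edgeR's quasi-likelihood test with Benjamini-Hochberg adjustment over all genes, 7 of the 16 differed between lines on average, against 69% of all genes tested, and 3 changed over time in the resistant line, against 43.2%. All 7 were higher in the susceptible line, as were 36.7% of all genes. In edgeR's test, 0 of 16 passed for the susceptible time course, the lines at 0 h or the line difference in time course. Of all genes tested, 33.6%, 34.6% and 14.4% passed there. At an unadjusted p under 0.05 in edgeR's test the counts of the 16 were 3, 0 and 4. The share of all genes at that unadjusted level was not computed, so these counts have no background. DESeq2 called 2, 0 and 5 of the 16 in these comparisons, where it called 43%, 37.7% and 30.5% of all genes it tested. For the resistant time course DESeq2 called 11 of the 16 and 51.9% of all genes. With limma, which could test 10 of the 16, 6 were called for the resistant time course (53% of all genes), 2 for the susceptible one (46.4%), 0 at 0 h (34.2%) and 1 for the difference in time course (19%).

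The members were then compared between lines and times. The rule used the mean over all 36 libraries and the spread within groups, not differences between group means. A group whose libraries all lack a transcript has no spread, so IDs absent from a line were less likely to be chosen. The large spread that chose the members also enters the error of these tests, so a low share called follows in part from the choice. The test was edgeR's quasi-likelihood test on all 36 libraries, with Benjamini-Hochberg adjustment over 23719 genes at 0.05, and all 150 members passed its filter on low counts. Averaged over the 6 times, 49 members (32.7%) differed between lines, against 69% of all genes tested. Of these, 20 were higher in the resistant line, where 32.2% of all genes were, and 29 in the susceptible line, where 36.7% were. DESeq2 called 60 members, against 71% of the genes it tested, and limma on log2(FPKM + 1) 39 of the 111 it could test, against 70%. The median absolute difference on the log2 scale was 0.91 for the members and 0.58 for all genes. A large spread within groups also raises the absolute size of estimated differences, so this contrast follows in part from the choice. No member had all 18 libraries of 1 line above all 18 of the other, while 12.2% of the genes tested did. A large spread within groups makes such a separation less likely, so this contrast too follows in part from the choice.

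Sme2.5_05389.1_g00003 was higher in the resistant line. Its resistant libraries had a lowest value of 0.028, a median of 93.7 and a highest of 162 CPM. The susceptible ones had 0.0217, 0.0284 and 58.4 CPM. The lines overlapped, since 4 resistant libraries were at the low level and 3 susceptible ones had at least 5 CPM. The log2 difference was 7.06 ± 1.22 (SE), with an adjusted p of 1.0e-05 in edgeR's quasi-likelihood test. Each susceptible library at 12 h held a deposited count of 1, so this size depends in part on how small counts were rounded. Averaged over times, Sme2.5_01674.1_g00014 was also higher in the resistant line, by a fitted 6.04 ± 1.15 (SE; edgeR adjusted p = 3.8e-05). Every susceptible library from 8 to 48 h held a deposited count of 1, so the size of this difference depends on rounding and is no bound. At 0 h alone this ID did not pass between lines (log2 difference 0.76, edgeR adjusted p = 0.81). It had at least 5 CPM in 11 resistant and 3 susceptible libraries, and all 3 of the latter were at 0 or 4 h. On the log2(FPKM + 1) scale, which understates changes of low values, limma gave differences of 4.28 and 1.91 for these IDs.

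Sme2.5_00235.1_g00017 was higher in the susceptible line. Its resistant libraries had a lowest and a median value of 0 and a highest of 14.0 CPM, with 10 of 18 at 0. The susceptible ones had 0.237, 47.2 and 208 CPM. The difference passed edgeR's quasi-likelihood test (adjusted p = 8.1e-07). Sme2.5_08140.1_g00004 had 16 of 18 resistant libraries at 0, and the other 2 held 29.5 CPM (8 h) and 12.4 CPM (48 h, replicate 3). Of the susceptible libraries 14 held at least 5 CPM, with a highest value of 26.7 CPM, and 4 were at 0 (edgeR adjusted p = 1.5e-04). Fitted differences with whole groups at 0 depend on the prior count and are no bound, so none is given for these IDs.

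**Figure D5:**
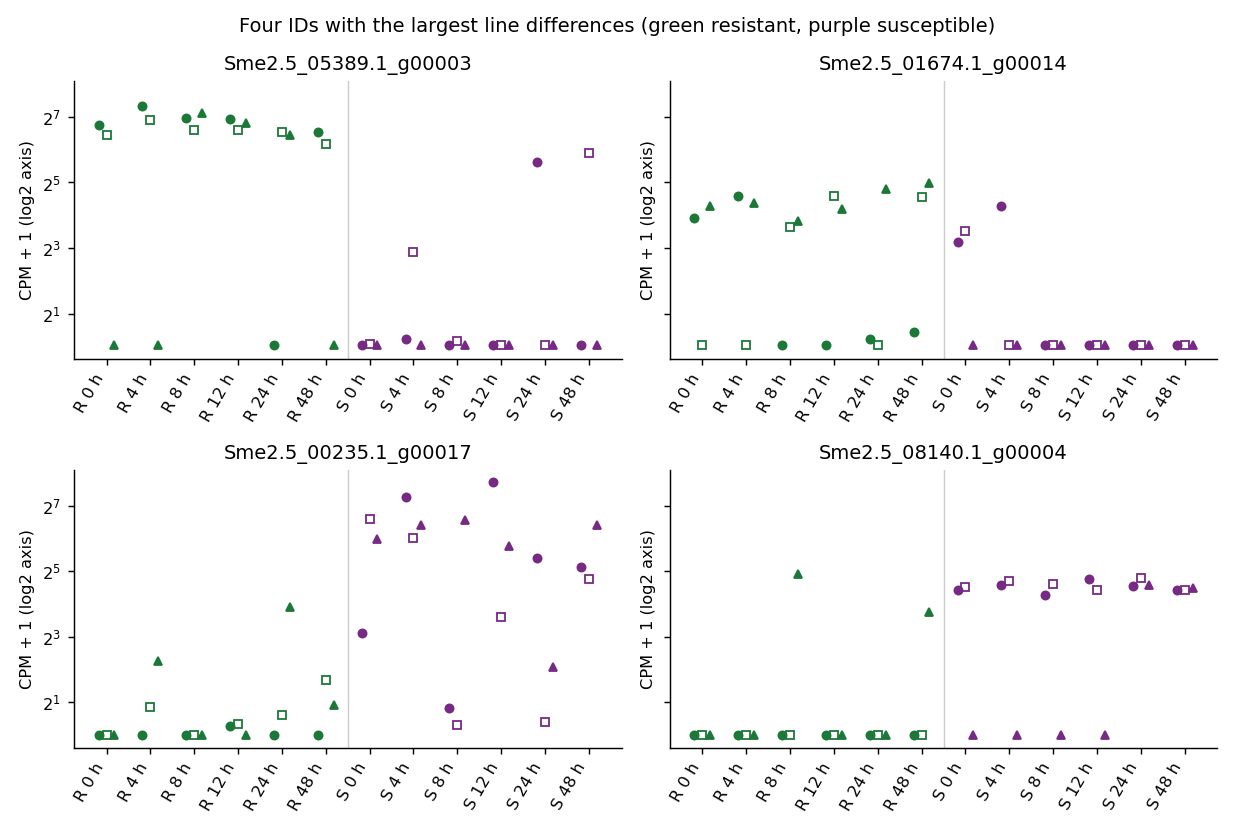
CPM + 1 on a log2 axis in all 36 libraries for the 4 IDs named for the line difference averaged over times (green resistant, purple susceptible). The values of the lines overlap for all 4 IDs although their means differ.

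Before feeding, at 0 h, 12 members differed between lines, against 34.6% of all genes tested. Of the 12, 4 were higher in the resistant line (15.2% of all genes) and 8 in the susceptible line (19.4%). DESeq2 called 23 members, against 37.7% of the genes it tested, and limma on FPKM 6 of the 111 it could test, against 34.2%.

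Over the time course, 19 members changed in the resistant line, against 43.2% of all genes, and 12 in the susceptible line, against 33.6%. Both time courses called 6 of them. Of the 19, 5 had their highest group mean at 48 h and 4 each at 8 and 24 h. Of the 12, 4 were highest at 24 h and 3 at 48 h. The shares of all genes called in both time courses or highest at each time were not computed. These counts can therefore not be called particular to the members. The count for the resistant line was 12 without replicate 3 at 12 h, and DESeq2 called 36 and 25 members in the resistant and susceptible lines, against 51.9% and 43% of the genes it tested.

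Sme2.5_01596.1_g00014 rose in both lines. Its resistant libraries had 1.08, 1.26 and 2.5 CPM at 0 h and 1473, 3615 and 733 CPM at 48 h. The susceptible ones had 20.6, 55.0 and 17.7 CPM at 0 h and 801, 629 and 1141 CPM at 48 h. The groups at 0 and 48 h did not overlap in either line. The log2 change from 0 to 48 h was 10.26 in the resistant line (edgeR adjusted p = 9.3e-06 for the time course) and 4.79 in the susceptible line (edgeR adjusted p = 1.1e-03). The lines' time courses did not pass the test of their difference (edgeR adjusted p = 0.069).

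Sme2.5_00290.1_g00001 fell early in the resistant line. It had 572, 1114 and 509 CPM at 0 h and 60.6, 5.98 and 3.19 CPM at 4 h, a log2 change of -4.97 (edgeR adjusted p = 1.2e-03 for the time course). At 24 h it was back at 1025, 1437 and 695 CPM. In the susceptible line it had 28.2, 6.50 and 48.6 CPM at 0 h and 479, 108 and 168 CPM at 24 h, a log2 change of 3.19 (edgeR adjusted p = 4.5e-04). The 24 h libraries were thus above all those at 0 h in the susceptible line. Earlier the susceptible line was lower as well, with fitted log2 changes of -1.76 at 4 h and -3.36 at 8 h. For this ID the time courses did not pass the test of their difference between lines (edgeR adjusted p = 0.26).

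Sme2.5_00629.1_g00005 was below its 0 h mean at several times in each line. In the resistant line it had 29.4, 1104 and 53.2 CPM at 0 h and 0.614, 6.22 and 0.712 CPM at 8 h, a log2 change of -7.30 (edgeR adjusted p = 8.4e-03 for the time course). Without replicate 2 at 0 h the change was -4.04. At 4 h it had 0.859, 4.15 and 14.2 CPM in the resistant line and 0.891, 0.765 and 20.1 CPM in the susceptible line, log2 changes of -5.92 and -5.18. The susceptible libraries had 415, 360 and 6.91 CPM at 0 h and 3.77, 1.05 and 0.959 CPM at 48 h (edgeR adjusted p = 4.2e-03). The resistant groups at 0 and 8 h and the susceptible groups at 0 and 48 h did not overlap, yet 1 library at 0 h stood far from the other 2 in each line. Sme2.5_01984.1_g00010 had 181, 559 and 178 CPM at 0 h and 2.78, 16.2 and 21.0 CPM at 12 h in the susceptible line, a log2 change of -4.54 (edgeR adjusted p = 0.028). Leaving out replicate 2 at 0 h or any 1 of the 3 libraries at 12 h ended this call in edgeR, with an adjusted p of 0.051 to 0.076 and a change of -5.03 to -3.78.

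The time course differed between lines for 5 members, against 14.4% of all genes. DESeq2 called 26 members and limma on FPKM 2, against 30.5% and 19% of the genes they tested. Without replicate 3 at 48 h of either line the count was 3. The smallest adjusted p among the members was that of Sme2.5_11121.1_g00002. It had 5.63, 33.0 and 10.7 CPM at 0 h and 1.66, 1.96 and 1.47 CPM at 8 h in the resistant line. Its susceptible libraries had 188, 169 and 40.3 CPM at 0 h and 344, 242 and 63.3 CPM at 8 h. All resistant libraries at 8 h lay below those at 0 h, while the susceptible groups overlapped. The log2 change at 8 h in the resistant line less that in the susceptible line was -3.96 (edgeR adjusted p = 4.7e-03 over the time course).

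Sme2.5_13488.1_g00001 rose in the resistant line, from 0.555, 2.60 and 5.99 CPM at 0 h to 51.7, 212 and 81.8 CPM at 48 h (edgeR adjusted p = 8.1e-04 for the time course). In the susceptible line it had 24.7, 43.5 and 8.97 CPM at 0 h and 19.8, 23.0 and 13.7 CPM at 48 h, and these groups overlapped. The susceptible time course did not pass (edgeR adjusted p = 0.45). The difference between lines in the change at 48 h was 5.71 on the log2 scale (edgeR adjusted p = 1.1e-02 over the time course).

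Sme2.5_00629.1_g00005 and Sme2.5_01795.1_g00007 also differed between lines in their time course. The susceptible libraries of the first had 176, 512 and 5.68 CPM at 8 h, which overlapped those at 0 h, while the resistant ones at 8 h lay below those at 0 h. The difference in its change at 8 h was -7.10 (edgeR adjusted p = 0.018 over the time course), and without replicate 2 of the resistant line at 0 h it was -3.83. Sme2.5_01795.1_g00007 had 19.2, 121 and 35.2 CPM at 0 h and 4.04, 7.10 and 4.60 CPM at 8 h in the resistant line. Its susceptible libraries had 715, 402 and 152 CPM at 0 h and 356, 320 and 78.7 CPM at 8 h. The groups at 0 and 8 h overlapped in the susceptible line and not in the resistant line. The difference in its change at 8 h was -2.71 (edgeR adjusted p = 0.021 over the time course). Leaving out replicate 3 of the resistant line at 48 h, or replicate 2 or 3 of the susceptible line at 48 h, ended this call in edgeR, with an adjusted p of 0.052 to 0.055. Without replicate 2 of the resistant line at 0 h the difference was -1.60.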

How the data were processed

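The authors deposited 2 tables, estimated counts as whole numbers and FPKM values, for 36 leaf RNA libraries, 3 per line and time. Per the submitters' processing notes, FastQC and HTSeq 0.6.1 were used, while the aligner and genome build are not given in the sources used here. The design took the deposited whole numbers for read counts. FPKM implies that they are estimated counts rounded up: over 8645 IDs with a stable ratio, a deposited 1 stood for a median of 0.26 and a deposited 2 for 1.59. They were used as deposited. The 3945 rows without an ID, with 4.46 to 7.28% of a library's counts, stayed out of totals and tests. Only part of the IDs have a deposited FPKM value, among them 111 members.

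The members, lists and tests were chosen with earlier results of these data known. CPM used TMM factors of edgeR 4.0.16 in R 4.3.3. The main test was edgeR's quasi-likelihood test with 12 group means, filterByExpr and Benjamini-Hochberg adjustment at 0.05. Time courses and their difference between lines were F-tests over 5 later times. Standard errors come from the F statistic. Alternatives were DESeq2 1.42.0, its size factors, no filter, limma 3.58.1 on log2(FPKM + 1), fits of only the groups compared, replicate blocks and fits without each library. The functions were tested on simulated data. Named IDs are the 4 with the highest score, both sides of the list's end, the 2 largest rises and falls per comparison among called members (for the lines, with at least 5 CPM in the higher line), the 2 smallest p-values of the line difference in time course, the 2 most central IDs of the cluster and the 3 with the most negative partner. Sme2.5_04657.1_g00004, partner of a highest-score ID, was chosen after its values were seen. Values near 0 are limited by rounding, since a deposited 1 is not 1 read.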

Additional observations from a re-analysis of the deposited data

Results flagged for a closer look

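For 4 of the named IDs the change over time differed between the lines by a test of the difference itself (edgeR's quasi-likelihood F-test over 5 interaction terms, Benjamini-Hochberg adjusted over 23719 genes). Sme2.5_11121.1_g00002 had a log2 change from 0 to 8 h that was -3.96 in the resistant relative to the susceptible line (edgeR adjusted p = 4.7e-03). Its resistant libraries had 16.4 ± 14.6 CPM at 0 h and 1.70 ± 0.248 CPM at 8 h (SD, n = 3 each), and its susceptible ones 133 ± 80.5 and 217 ± 142 CPM (SD, n = 3 each). Sme2.5_13488.1_g00001 had a difference of 5.71 at 48 h (edgeR adjusted p = 1.1e-02). Its resistant libraries had 3.05 ± 2.75 CPM at 0 h and 115 ± 85.2 CPM at 48 h (SD, n = 3 each), and its susceptible ones 25.7 ± 17.3 and 18.8 ± 4.75 CPM (SD, n = 3 each). Both kept their direction and stayed past the threshold in each of the 41 alternative fits, with an adjusted p of up to 0.014 and 0.023. Sme2.5_00629.1_g00005 had a difference of -7.10 at 8 h (edgeR adjusted p = 0.018). In the resistant line it had 396 ± 614 CPM at 0 h and 2.51 ± 3.21 CPM at 8 h (SD, n = 3 each), and in the susceptible line 261 ± 221 and 231 ± 258 CPM (SD, n = 3 each). It stayed past the threshold in 42 alternative fits, with an adjusted p of up to 0.045. Sme2.5_01795.1_g00007 had a difference of -2.71 at 8 h (edgeR adjusted p = 0.021). The resistant line had 58.6 ± 55.0 CPM at 0 h and 5.25 ± 1.63 CPM at 8 h (SD, n = 3 each), and the susceptible line 423 ± 282 and 252 ± 150.9 CPM (SD, n = 3 each). Its call was lost in 3 of 41 alternative fits, each without 1 library at 48 h, with an adjusted p of up to 0.055.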

How the results depend on the processing

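The count of members that differed between lines on average (49) stayed within 1.5 times under every alternative run, from 39 with limma on the 111 members with FPKM to 60 with DESeq2. DESeq2 called 23 members between lines at 0 h, 36 and 25 over the resistant and susceptible time courses and 26 for their difference, and limma called 6 at 0 h and 2 for the difference in time course. The cause was not tested, beyond the fewer members that limma could test. Without each library in turn the counts were 44 to 53 for the lines on average, 9 to 15 at 0 h, 12 to 25 and 10 to 17 over the resistant and susceptible time courses, and 3 to 7 for their difference. Same-numbered libraries of the lines at the same time had an r of -0.21 to 0.27. Differently numbered libraries were not set beside them, so these values cannot decide whether the replicate numbers pair the libraries. With the replicate number as a block the counts were 46, 13, 24, 15 and 5, and with a replicate block within each line 51, 12, 24, 13 and 6. Of the 150 members, 67 stayed on the list when IDs on and off in a group were left out, as that construction removes 83 of them. Between 104 (FPKM) and 150 stayed under the other settings, and 131 to 144 without each library. With FPKM, only the 111 members that have an FPKM value could stay. The lists of each line shared 39 to 46 IDs and the cluster held 14 to 16 without each library. The 16 named test results that were refitted kept their direction in each alternative run. Calls were lost for Sme2.5_01984.1_g00010 in 4 and for Sme2.5_01795.1_g00007 in 3 of the fits without 1 library, and for none of the other 14. Values of a few estimated counts limit what can be said of the low level of switched IDs.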
